A study of Mus musculus with 6 samples.

Results

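The prostaglandin genes described here are Ptgs1, Ptgs2, Ptges, Ptgis, Ptgds, Ptgfr, Ptger2, Ptger3, Ptger4 and Ptgir, 10 genes for the enzymes that make prostaglandins and the receptors that sense them. Each was found by its name in the annotation of an Agilent whole-genome array, and 7 of the 10 were among the 21960 genes bright enough to be tested. The samples were primary myoblasts, the muscle progenitors that proliferate in culture, sorted by flow cytometry from skeletal muscle of male C57BL/6 mice aged 3 months. The 3 TGFb samples were cultured for 4 days with transforming growth factor beta (TGFb), a cytokine best known for driving fibrosis, and the 3 untreated samples for the same time without it. All 6 cultures grew in DMEM with 20% serum, so the untreated cells also met whatever growth factors the serum holds. The labels give neither the dose or isoform of TGFb nor the markers used for the sort. They call the 3 samples of a group separate experiments.

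Prostaglandins are short-lived lipid signals. Phospholipases free arachidonate from membranes, the cyclooxygenases Ptgs1 and Ptgs2 turn it into the common precursor prostaglandin H, and a synthase specific to each product turns that into prostaglandin E, D, F or prostacyclin. The products leave the cell and act through receptors coupled to G proteins on the same or neighbouring cells. In skeletal muscle, prostaglandins are known to take part in regeneration after injury, and prostaglandin E acting on Ptger4 is known to promote expansion of muscle stem cells.

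After TGFb, Ptgs2, Ptgs1 and Ptger4 read higher on all 3 treated arrays than on any untreated array, and Ptgds and Ptgir read lower on all 3. The fitted difference was 7.56-fold for Ptgs2, 3.50-fold for Ptgs1 and 2.21-fold for Ptger4 when the day of scanning was a term in the model, and each of these passed the test there, as did the fall of Ptgds. With group as the only term, none of the 7 tested genes passed at an adjusted p of 0.05 by limma, although 5 of 7 had an unadjusted p below that value, beside 11.5% of all genes tested. The 5 include Ptgir, which was tested only because of its signal on the untreated arrays. Ptges and Ptgis passed in neither fit. The receptors Ptgfr, Ptger2 and Ptger3 were not well above background on any of the 6 arrays.

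The day of scanning, read from the file headers, separated the arrays more than the treatment did. The first principal component held 72.4% of the variance and split the 3 arrays of day 1 (TGFb 1, untreated 1 and untreated 2) from the 3 of day 2 (TGFb 2, TGFb 3 and untreated 3). Across all genes the median size of the difference between days was 0.78 on the log2 scale, against 0.34 for the difference between groups. Because both days hold both groups, each of the 7 tested genes is given by 3 readings, from a model of group alone, from a model that adds scan day, and from each day on its own. The group-only fit called 153 genes higher after TGFb, 0.697% of those tested, and 154 lower, 0.701%. With scan day as a term, 1011 genes (4.6%) were higher and 1216 (5.54%) lower, a split that median centring in place of the 75th percentile moved to 581 and 1270. Untreated 1 and untreated 2 were the closest pair of arrays (r = 0.996 across genes), and the names of their scanner files give both the same replicate number. If they come from 1 culture, the standard errors and p-values below are too small, and values with the pair averaged to 1 sample are given where they change a call. Between 50.6% and 55.8% of probes were well above background on an array, and the number of arrays limits the precision.

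**Figure D1:**
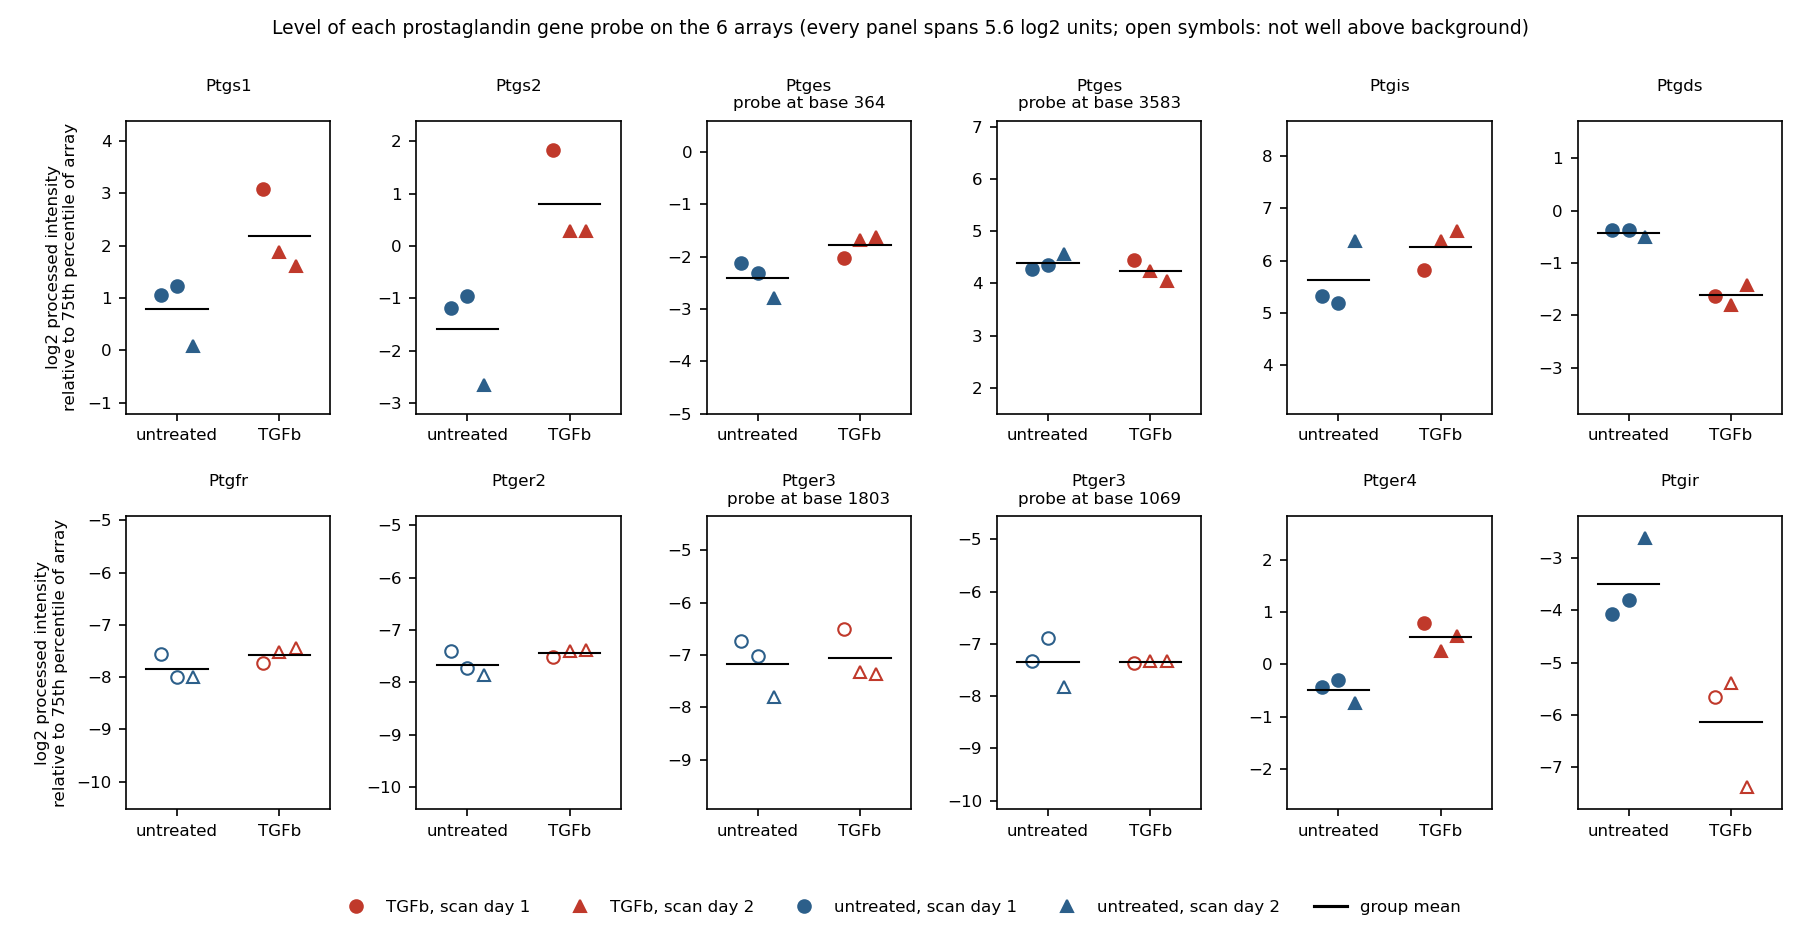
Level of every probe of the 10 prostaglandin genes on each array, as log2 processed intensity relative to the array's own 75th percentile. Colours give the group, circles and triangles the scan day, bars the group means, and open symbols probes not well above background. Ptgs1, Ptgs2 and Ptger4 lie higher on all 3 TGFb arrays, Ptgds and Ptgir lower, and Ptgfr, Ptger2 and Ptger3 are open throughout.

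Ptgs2 encodes the inducible cyclooxygenase, which most cells make only after a stimulus. Its probe of 60 bases lies at mm9 chr1:151954744-151954803 on the plus strand, from base 3746 of the transcript, and is printed on 10 spots of each array. The log2 level relative to the array's 75th percentile was 1.83, 0.29 and 0.29 on the TGFb arrays and -1.18, -0.95 and -2.65 on the untreated arrays. In both groups the day 1 arrays read higher than the day 2 arrays, and the groups did not overlap. The processed intensities behind these values were 3379, 1455 and 1655 after TGFb and 387, 514 and 251 without it. The 9 or 10 spots used on an array had an SD between 0.05 and 0.16 log2, which is technical spread within an array; TGFb 2 and TGFb 3 differed by less than it.

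The group means of Ptgs2 were 0.80 ± 0.89 (SD, n = 3) and -1.59 ± 0.92 (SD, n = 3), a log2 difference of 2.40 ± 0.64 (SE) with an adjusted p of 0.198 by limma. Within day 1 the difference was 2.90 and within day 2 it was 2.94. With scan day as a term it was 2.92 ± 0.14 (SE), adjusted p = 0.00159 by limma. Ptgs2 passed in all 15 alternatives run with that term, including the pair of untreated arrays averaged.

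Ptgs1 encodes the other cyclooxygenase, usually described as constitutive. Its probe lies at mm9 chr2:36107644-36107703 on the plus strand, from base 2718 of the transcript. Levels were 3.09, 1.88 and 1.60 on the TGFb arrays and 1.05, 1.23 and 0.08 on the untreated arrays, on the same log2 scale. The lowest treated array stood above the highest untreated one. The group-only difference was 1.41 ± 0.52 (SE), adjusted p = 0.375 by limma. Within day 1 it was 1.95 and within day 2 it was 1.66, and with scan day as a term 1.81 ± 0.17 (SE), adjusted p = 0.00494. The call was lost without TGFb replicate 1 (adjusted p = 0.0530) and without untreated replicate 3 (adjusted p = 0.0537), the arrays whose removal leaves 1 day with both groups.

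The promoter windows of the 4 genes that passed once scan day was modelled are shown so that the 3 that rose can be compared with the 1 that fell. They come from RefSeq on GRCm38.p6 and run from 250 bases before the transcript start to 30 bases after it. Capitals mark matches, on either strand, to 5 short motifs: CAGAC (the SMAD box, bound by the transcription factors downstream of TGFb), TGACG (CRE, here a part of the cyclic AMP response element), TATAAA (the TATA box), CACGTG (the E box) and TTGCNNAA (C/EBP). Ptgs2 is at chr1:150099781-150100060 on the plus strand, Ptgs1 at chr2:36230176-36230455 on the plus strand, Ptger4 at chr15:5244158-5244437 on the minus strand and Ptgds at chr2:25469720-25469999 on the minus strand.
Ptgs2: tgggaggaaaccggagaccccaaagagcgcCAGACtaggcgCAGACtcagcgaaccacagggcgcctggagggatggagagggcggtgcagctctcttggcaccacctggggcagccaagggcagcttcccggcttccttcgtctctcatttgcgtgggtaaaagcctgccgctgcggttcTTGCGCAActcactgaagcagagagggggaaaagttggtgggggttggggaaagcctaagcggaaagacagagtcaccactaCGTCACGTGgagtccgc
Ptgs1: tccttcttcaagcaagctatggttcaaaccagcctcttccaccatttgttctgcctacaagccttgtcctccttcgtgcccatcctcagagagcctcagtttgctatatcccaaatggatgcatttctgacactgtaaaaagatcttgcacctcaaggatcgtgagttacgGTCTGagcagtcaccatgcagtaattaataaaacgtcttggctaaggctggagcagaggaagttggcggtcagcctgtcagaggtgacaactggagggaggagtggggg
Ptger4: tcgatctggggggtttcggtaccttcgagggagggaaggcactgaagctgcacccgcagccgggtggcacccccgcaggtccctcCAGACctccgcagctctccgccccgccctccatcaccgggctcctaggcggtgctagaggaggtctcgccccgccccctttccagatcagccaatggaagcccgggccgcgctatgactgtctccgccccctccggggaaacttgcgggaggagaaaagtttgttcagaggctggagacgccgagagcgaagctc
Ptgds: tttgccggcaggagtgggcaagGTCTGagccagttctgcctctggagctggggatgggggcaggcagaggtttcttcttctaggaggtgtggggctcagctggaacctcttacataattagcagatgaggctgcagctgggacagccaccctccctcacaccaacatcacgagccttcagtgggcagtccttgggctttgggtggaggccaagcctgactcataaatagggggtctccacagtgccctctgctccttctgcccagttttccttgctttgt

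Positions are counted with the first transcribed base as 1 and no base 0. The Ptgs2 window held SMAD boxes at -220 and -209, a C/EBP match at -69, and a cyclic AMP element match at 14 that overlaps an E box at 17. Ptgs1 held a SMAD box at -79, Ptger4 at -165 and Ptgds at -228. Of the 9 prostaglandin genes with a window, 6 held at least 1 SMAD box, against 46.8% of all 32851 windows of that length. The cyclic AMP element was in 1 of the 9 and in 19.9% of all windows, the E box in 1 of the 9 and in 6.79%, the C/EBP motif in 1 of the 9 and in 10.4%, and the TATA box in 0 of the 9 and in 13.1%. Since the SMAD box is so common and also occurs in the windows of Ptgds and Ptger3, these matches are a description of the letters only.

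**Figure D2:**
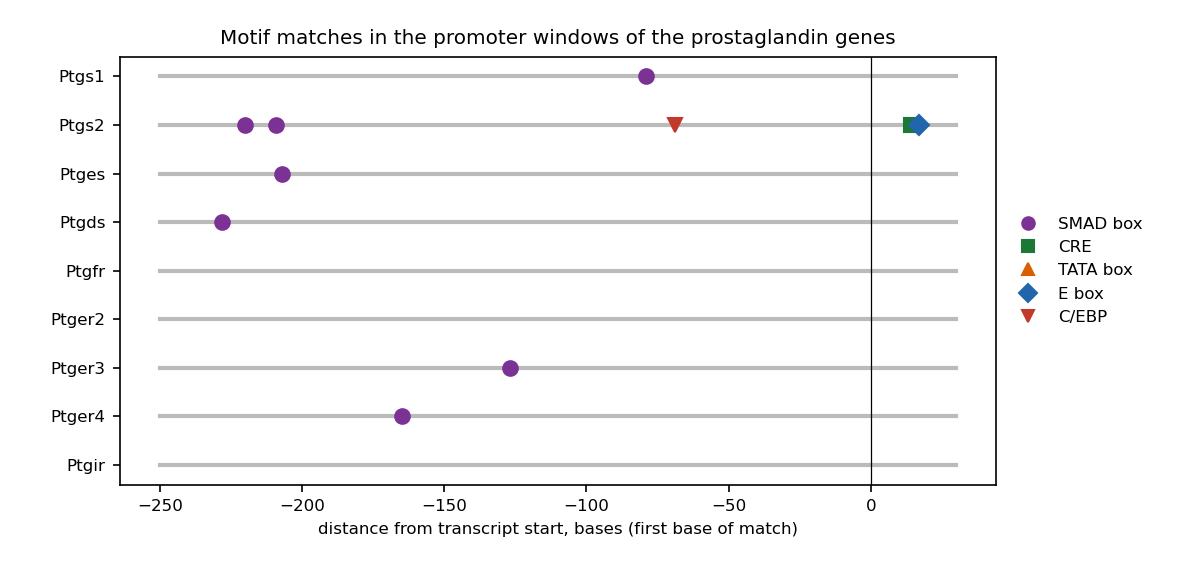
Positions of the motif matches in the promoter windows of the 9 prostaglandin genes that have one, as distance in bases from the transcript start to the first base of the match. Grey lines are the windows, from 250 bases before to 30 bases after the start. Ptgs2 holds 5 matches, the most of the 9, and Ptgfr, Ptger2 and Ptgir hold none.

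Downstream of the cyclooxygenases, 1 of the 3 synthases passed in the fit with scan day. Ptgds encodes the lipocalin-type prostaglandin D synthase. Its probe lies at mm9 chr2:25322232-25322291 on the minus strand, from base 746 of the transcript. It read -1.63, -1.80 and -1.41 on the TGFb arrays and -0.36, -0.38 and -0.51 on the untreated arrays, with no overlap and little difference between days. The log2 difference was -1.20 ± 0.25 (SE), adjusted p = 0.106 by limma, with group alone. Day 1 alone gave -1.26 and day 2 alone -1.10, and the model that adds scan day gave -1.18 ± 0.17 (SE), adjusted p = 0.0160. Averaging untreated 1 and 2 raised that adjusted p to 0.0864. The call was also lost in 4 of the 6 fits that left out 1 array, those without TGFb 1, untreated 1, untreated 2 or untreated 3, where the adjusted p lay between 0.0870 and 0.118.

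Ptgis encodes prostacyclin synthase, and its probe, at mm9 chr2:167028696-167028755 on the minus strand, had processed intensities from 34896 to 129927 with no saturated spot. Levels were 5.83, 6.37 and 6.56 after TGFb and 5.32, 5.19 and 6.37 without it. Here the day 2 arrays read higher in both groups, and untreated 3 stood level with TGFb 2. The difference was 0.63 ± 0.42 (SE, adjusted p = 0.664 by limma) with group alone and 0.33 ± 0.18 (SE, adjusted p = 0.298) with scan day, whose 95% interval ran from -0.12 to 0.78. The differences within days were 0.58 and 0.09, so no shift of Ptgis was shown, and the interval reaches a rise of 0.78 log2.

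Ptges encodes the microsomal prostaglandin E synthase, the inducible enzyme that often works together with Ptgs2. The array carries a pair of probes for it, and they differed in direction. The brighter one, from base 3583 of the transcript, read 4.45, 4.23 and 4.06 after TGFb and 4.28, 4.35 and 4.56 without it. The other, from base 364, read -2.03, -1.69 and -1.63 after TGFb and -2.12, -2.31 and -2.78 without it. For the brighter probe the groups overlapped, with a difference of -0.15 ± 0.26 (SE, adjusted p = 0.833 by limma) and, with scan day, a 95% interval from -0.61 to 0.32. In the fit of all 30005 probes, the other probe differed by 0.62 ± 0.30 (SE, adjusted p = 0.544) with group alone. With scan day it differed by 0.66 ± 0.25 (SE, adjusted p = 0.183). Day 1 alone gave 0.18 and day 2 alone 1.13. Neither probe passed in any fit, and no direction is given for Ptges.

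Among the 5 receptors, Ptger4 was the only one well above background in both groups. It encodes EP4, a prostaglandin E receptor that raises cyclic AMP. Its probe lies at mm9 chr15:5184419-5184478 on the minus strand, from base 1828 of the transcript. Levels were 0.80, 0.26 and 0.53 on the TGFb arrays and -0.42, -0.29 and -0.74 on the untreated arrays, without overlap. The group-only difference was 1.02 ± 0.28 (SE), adjusted p = 0.213 by limma. Within days it was 1.16 and 1.13, and with scan day as a term 1.15 ± 0.15 (SE), adjusted p = 0.0127. The size held between 0.96 and 1.21 over the 15 alternatives with that term, but the call was lost in 6 of them. Those were median centring (adjusted p = 0.0672), untreated 1 and 2 averaged (0.0746), and the fits without TGFb 1 or any single untreated array (0.0775 to 0.114).

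Ptgir encodes the prostacyclin receptor, also coupled to cyclic AMP. Its probe, at mm9 chr7:17496120-17496179 on the plus strand, was well above background on the 3 untreated arrays and on none of the 3 TGFb arrays, so it was tested only because of the untreated group. Levels were -4.06, -3.80 and -2.62 on the untreated arrays. On the TGFb arrays they were -5.65, -5.38 and -7.38, values close to background and with no reliable order. Each TGFb value was raised, where lower, to the dimmest signal counted as well above background on its array. The mean of the TGFb arrays was then 2.04 log2, or 4.11-fold, below that of the untreated arrays. This is not a lower limit on the fall, since day 1 alone gave -1.72 and day 2 alone -3.76 on the same scale. The fitted log2 difference with group alone was -2.64 on this scale. It was -1.29 in the authors' deposited table and -1.10 after normexp background correction, both smaller falls. The adjusted p was 0.172 by limma with group alone and 0.0740 with scan day as a term. It passed with slide as a block (0.0409) and in 4 of 14 alternatives with scan day. Untreated 3 read highest, and without it the adjusted p with scan day was 0.436.

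The remaining receptors gave no measurable level. Ptgfr, the prostaglandin F receptor, Ptger2, another receptor that raises cyclic AMP, and Ptger3, which lowers it, had processed intensities between 3.88 and 10.5 on every array, Ptger3 on both of its probes. For comparison on the same arrays, the 75th percentile of all spots lay between 876 and 1569. Their transcripts were therefore not detectable at the sensitivity of these probes, in either group, and no fold change is given.

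**Figure D3:**
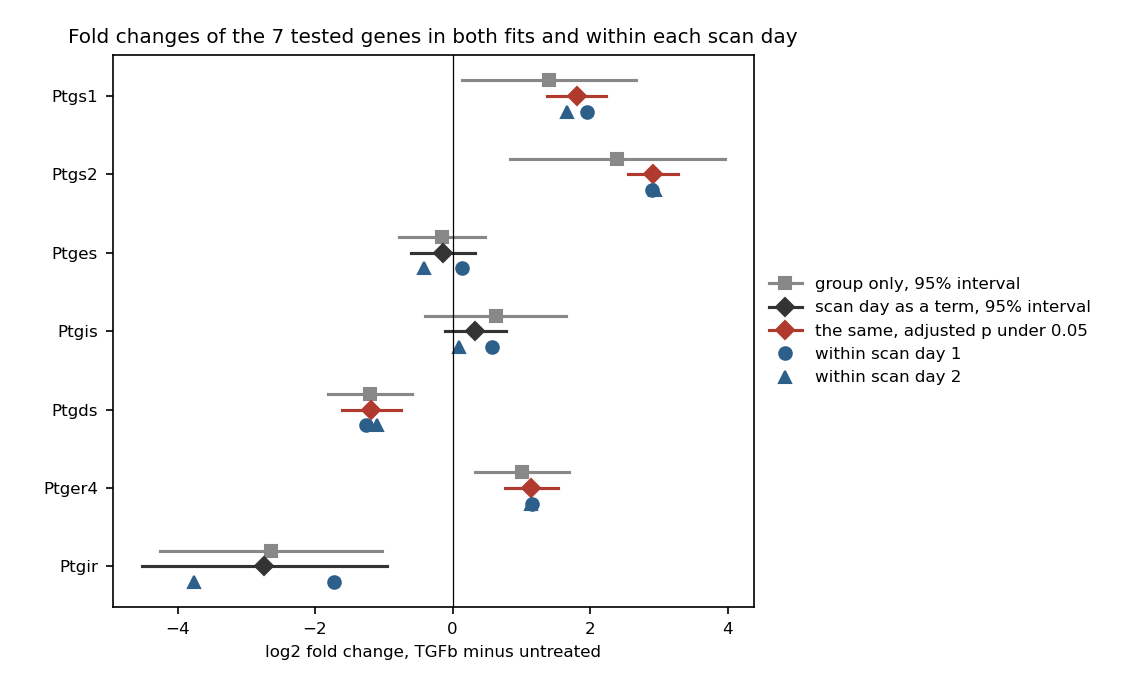
Log2 fold change of the 7 tested genes, TGFb minus untreated, by group alone (grey squares), with scan day as a term (diamonds, red where the adjusted p is under 0.05) and within each scan day (blue). Bars are 95% intervals. For Ptgs2, Ptgs1, Ptger4 and Ptgds the within-day values lie close together, and for Ptges they fall on opposite sides of 0.

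Read against all genes, the 7 tested genes gave these counts. In the fit with scan day, 3 of 7 tested genes were higher, beside 4.6% of all genes, and 1 of 7 was lower, beside 5.54%. The groups did not overlap for 3 genes above and 2 below, beside 8.5% and 9.49% of all genes. The 2 below are Ptgds and Ptgir, and the TGFb values of Ptgir lie close to background with no reliable order. With group alone 0 of 7 were called in either direction. The median log2 difference over the 7 tested genes was 0.63 (0.33 with scan day), beside 0.05 (0.04) over all genes. Both medians are the value of Ptgis, which passed in neither fit, and the 7 genes moved in both directions. Because Ptgir passed the brightness filter through 1 group alone, its place among the 2 below is not independent of that filter. These counts describe the tested genes and not all 10.

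The authors also deposited a table of normalized log2 values for the same arrays, and scan day weighs far less in it. There the median size of the difference between days was 0.14, against 0.24 between groups, and the first component separated the groups. Ptgs2 stood at 11.95, 11.30 and 11.25 after TGFb and at 8.88, 9.09 and 8.94 without it, so the untreated arrays of both days are level, unlike in the scanner values. The group-only difference in that table was 2.53 ± 0.20 (SE, adjusted p = 0.000392 by limma) for Ptgs2, 1.78 ± 0.16 (adjusted p = 0.000610) for Ptgs1, 1.13 ± 0.12 (adjusted p = 0.00130) for Ptger4 and -1.28 ± 0.28 (adjusted p = 0.0220) for Ptgds. Of all genes there, 7.21% were called higher and 7.83% lower. Ptgir also passed there (adjusted p = 0.0160), while Ptgis, 0.52 ± 0.19 (adjusted p = 0.113), and Ptges, -0.04 ± 0.15 (adjusted p = 0.888), did not. The sources used here do not say how the table was normalized. If a difference between days was removed before deposit, p-values from a fit that does not count that step are too small.

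**Figure D4:**
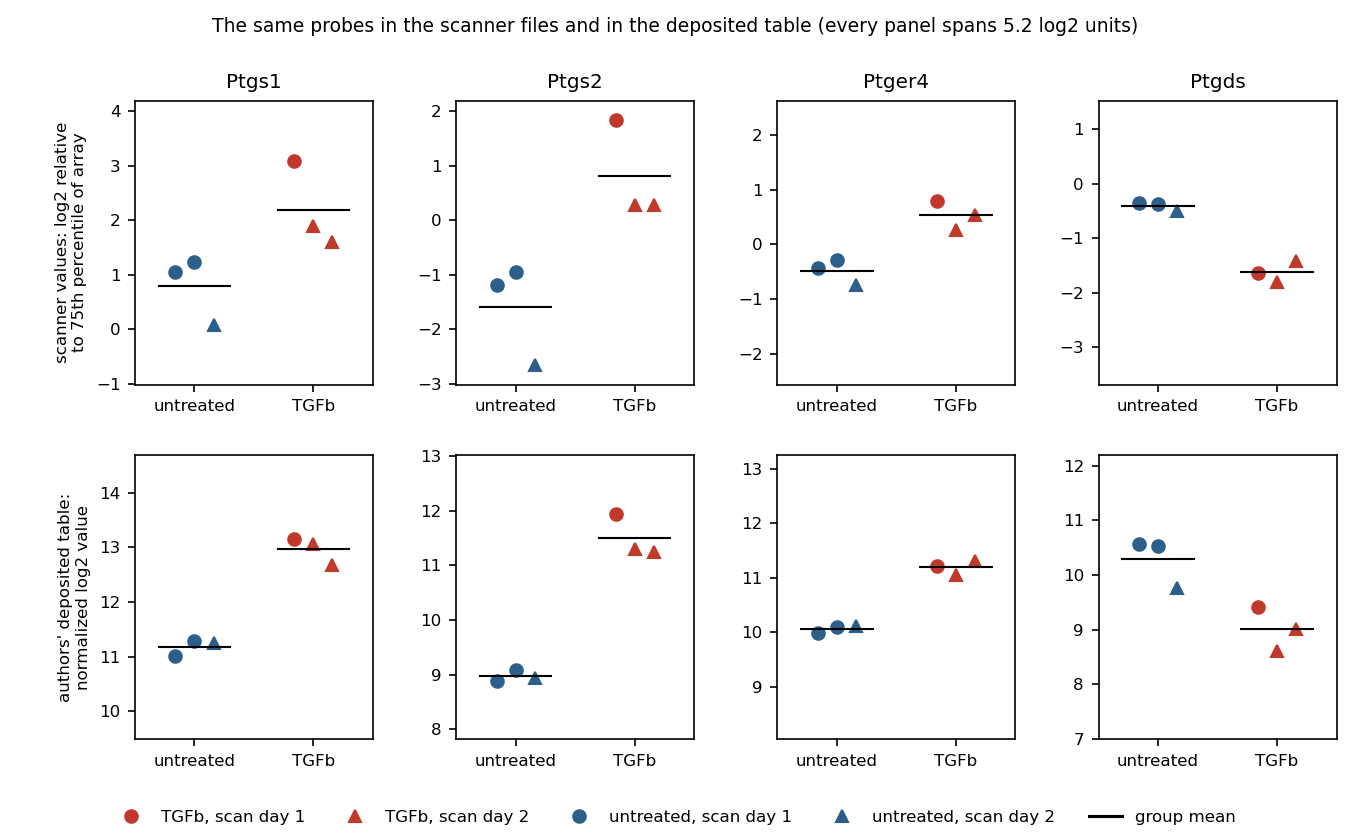
Levels of the 4 genes that passed with scan day as a term, in the scanner files (top, log2 relative to the array's 75th percentile) and in the authors' deposited table (bottom, normalized log2 value). Circles are scan day 1, triangles day 2, and bars the group means. The day 2 untreated array lies below the others for Ptgs1 and Ptgs2 in the top row and level with them in the bottom row. For Ptgds it lies near the others in the top row and below them in the bottom row, at 9.76 against 10.58 and 10.54.

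Of 29 other genes of the prostaglandin and leukotriene pathways on the array, 20 were tested. With group alone 0 of 20 passed in either direction by limma, with an unadjusted p under 0.05 for 4 higher, beside 5.76% of all genes, and 6 lower, beside 5.77%. With scan day as a term, 4 were higher, beside 4.6% of all genes, 4 were lower, beside 5.54%, and 12 were not called. The 8 that passed with scan day had adjusted p-values from 0.0716 to 0.557 with group alone, and the values of these genes below are from the model with scan day unless stated. The median log2 difference with scan day was 0.00 over the 20 genes and 0.04 over all genes.

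At the first step, Pla2g4a, the cytosolic phospholipase A that frees arachidonate for the cyclooxygenases, read 3.73, 4.42 and 3.73 after TGFb and 1.73, 1.79 and 2.77 without it. Its groups did not overlap, and the difference with scan day was 1.64 ± 0.27 (SE), adjusted p = 0.0226 by limma. Day 1 alone gave 1.97 and day 2 alone 1.30. Pla2g6, a phospholipase that does not need calcium, was lower by the same fit, at -0.93 ± 0.17 (SE), adjusted p = 0.0305. Among the synthases, Prxl2b, a prostaglandin F synthase, was lower at -1.06 ± 0.17 (SE, adjusted p = 0.0222). Ptges3, the cytosolic prostaglandin E synthase and a cochaperone, was level, at 0.06 ± 0.16 (SE, adjusted p = 0.845).

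For clearance, Slco2a1, the transporter that takes prostaglandins back into cells, was higher by 0.99 ± 0.17 (SE, adjusted p = 0.0259 by limma) with scan day. Its mean level was -4.25 after TGFb and -5.16 without it. On untreated 1, 2 and 3 it read -4.95, -5.21 and -5.31. The dimmest signal counted as well above background there was -5.26, -5.74 and -5.66, so its untreated values lie near that limit. Pparg, a nuclear receptor that prostaglandin D products can bind, was lower by the same fit, at -0.88 ± 0.15 (SE, adjusted p = 0.0269). Hpgd, the dehydrogenase that inactivates prostaglandin E and F, was not well above background on any array. It was 1 of 8 genes of the list at background throughout, and the other untested gene, Pla2g5, a secreted phospholipase named after its values were seen, was above it on 1 array.

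Arachidonate also feeds the leukotriene branch. Alox5, the lipoxygenase that starts it, read 4.21, 4.82 and 4.96 after TGFb and 2.56, 2.36 and 3.18 without it, without overlap. The difference was 1.97 ± 0.36 (SE, adjusted p = 0.0716 by limma) with group alone and 1.73 ± 0.15 (SE, adjusted p = 0.00379) with scan day. Ltc4s, which makes leukotriene C, was higher by 1.05 ± 0.22 (SE, adjusted p = 0.0467). Alox5ap, the membrane partner that presents arachidonate to Alox5, was lower instead, at -0.97 ± 0.14 (SE, adjusted p = 0.0166). Of the 8 pathway genes that passed with scan day, the count fell to 1 when untreated 1 and 2 were averaged, and to 0 without untreated 3.

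**Figure D5:**
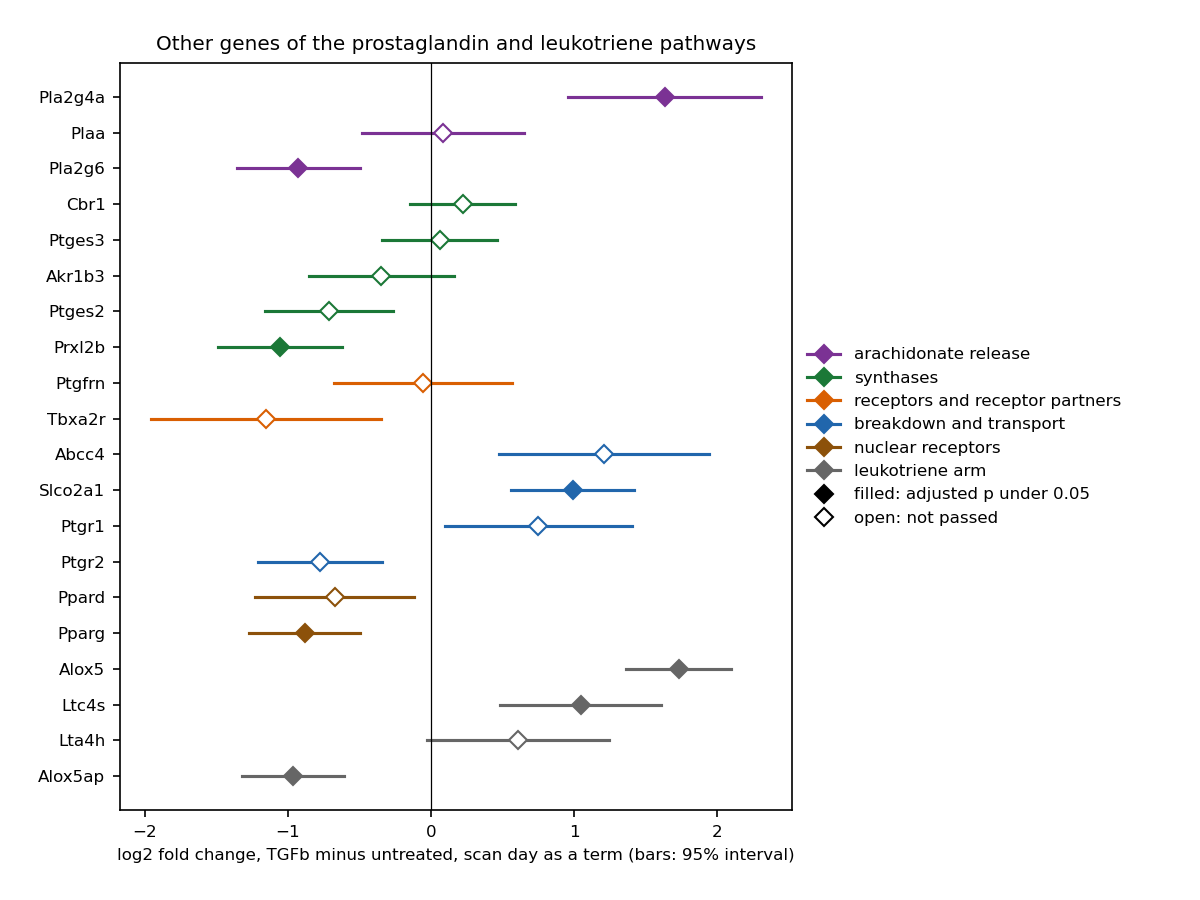
Log2 fold change, TGFb minus untreated with scan day as a term, of the 20 tested genes of the prostaglandin and leukotriene pathways outside the 10. Bars are 95% intervals, colours the step of the pathway, and filled symbols an adjusted p under 0.05. The filled symbols are 4 on each side of 0, with Alox5 and Pla2g4a farthest to the right.

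The sorted cells carried most of the markers of their label. Of 7 myoblast markers, 6 (Pax7, Myod1, Des, Cdh15, Itga7 and Ncam1) stood well above background on every array. The other, Myf5, was above it on some arrays but not all, and was not among the genes tested. The list's summed linear level, in multiples of the array's 75th percentile, ran from 246 to 516 after TGFb and from 288 to 514 without it. Cyclooxygenases and prostaglandin receptors are also known from macrophages, mast cells, endothelium, fibroblasts and pericytes, so markers of these were read on the same arrays. Macrophage markers above background on every array numbered 3 of 6 (Cd14, Csf1r, Itgam), with Cd68 above it on none, and the list's summed level was 16.4 to 118 after TGFb and 16.3 to 66.8 without it. Itgam made up most of that sum. It read 3.97 on TGFb 1, 3.95 on untreated 1 and 3.98 on untreated 2, the day 1 arrays. On day 2 it read 6.65 on TGFb 2, 6.87 on TGFb 3 and 6.03 on untreated 3. None of the 3 macrophage markers tested passed in either fit. Mast cell markers summed to 0.41 to 0.72 and 0.19 to 0.80, with Kit, Cpa3, Fcer1a and Ms4a2 above background on no array. Endothelial markers summed to 0.69 to 3.32 and 0.97 to 4.15, with Tek above background on no array, and of the 4 tested Vwf fell by 1.30 log2 with scan day (adjusted p = 0.00640 by limma; 0.107 with group alone). The other 3 did not pass, at 0.60 for Pecam1, 0.28 for Kdr and -0.59 for Cdh5.

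Fibroblast and mesenchymal progenitor markers summed to 2.71 to 5.16 after TGFb and 1.97 to 3.31 without it, with Dpt above background on no array. Cd34 made up most of it, and its groups overlapped (adjusted p = 0.101 by limma with scan day). Pericyte and smooth muscle markers were the list whose summed level did not overlap between groups, 14.0 to 36.3 after TGFb and 4.93 to 11.3 without it. Most of that sum is Rgs5, a regulator of G protein signalling, which was higher by 1.57 ± 0.23 (SE, adjusted p = 0.0168 by limma, with scan day; 0.248 with group alone). Cspg4, the other member tested, overlapped between groups and did not pass (adjusted p = 0.0763 with scan day), while Myh11 and Kcnj8 were above background on no array. Of the myoblast markers, Ncam1 was higher by 1.29 ± 0.16 (SE, adjusted p = 0.0106) and Des fell by 1.28 ± 0.16 (SE, adjusted p = 0.0101), both with scan day. With group alone the adjusted p was 0.231 and 0.141. The other 4 tested did not pass with scan day, at -0.66 for Itga7, -0.53 for Myod1, -0.45 for Cdh15 and -0.02 for Pax7. Ncam1 was thus the only one higher, and the median over the 6 tested was -0.49. The part of any other cell type in the values of the prostaglandin genes was not tested, and in RNA from whole cultures fewer cells of a type cannot be told apart from less RNA per cell.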

How the data were processed

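The authors deposited a scanner file per array with spot intensity, and a table of log2 values. Per the file headers, each file comes from Agilent Feature Extraction 10.7.3.1, which subtracted background, with probe positions on mm9. Spots near background carry substitute values, which makes ratios of dim probes imprecise. The table's columns have medians of 7.11 to 7.12 and each followed the log2 scanner signal of the matching array (r = 0.992 to 0.993), which puts it on a log2 scale; the sources used here do not state its normalization.

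Control and outlier spots (176 to 365 per array) were left out, each array's 75th percentile of log2 processed intensity was subtracted, and replicate spots were averaged. Probes were tested if well above background on at least 3 of 6 arrays, and a gene was represented by its brightest such probe. Gene names were updated through RefSeq (GRCm38.p6) for 26300 of 55681 probes. The comparison of TGFb with untreated arrays used lmFit and eBayes of limma 3.58.1 (R 4.3.3), by group alone and with scan day as a term, with Benjamini-Hochberg adjustment over all 21960 genes and a threshold of 0.05. Log2 fold changes are differences of mean log2 values with group alone, and the fitted group term where scan day is in the model. Where a group was below background on all its arrays, a further comparison raised its values, where lower, to each array's dimmest well-above-background signal.

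Every prostaglandin gene is named with all its probes. From the pathway list, genes that passed in either fit are named, with Pla2g4a, Ptges3 and Hpgd whatever their values. Lists and genes were chosen with earlier results of these data known. Promoters came from the RefSeq table, which held 9 of the 10 genes, and motifs were searched on both strands. The fit and motif search were tested on simulated data. Background correction, normalization, source table, dim-probe filter, probe choice, outlier spots, slide, replicate block and leaving out each array were the alternatives; averaging untreated 1 and 2, and each other alternative with scan day as a term, were added after seeing the data.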

Additional observations from a re-analysis of the deposited data

How the results depend on the processing

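With group alone, the count of all genes called was 307. It was 107 with median centring, 3303 in the authors' deposited table, 2227 with scan day as a term, 794 with slide as a block and 0 to 196 when 1 array was left out. It was 0, with 1460 genes at an unadjusted p under 0.05, when untreated 1 and 2 were averaged. The prostaglandin genes called, 0 with group alone, became 5 in the deposited table, 4 with scan day and 3 with slide. For the other pathway genes, 0 became 12, 8 and 2 in the same settings and 1 with quantile normalization.

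With scan day as a term, the 2227 became 3418 in the deposited table, 1304 without the filter on dim probes, 681 with untreated 1 and 2 averaged and 329 to 3320 when 1 array was left out. The count of prostaglandin genes called, 4, became 2 with the pair averaged and 1 to 5 when 1 array was left out; the 5 without TGFb 3 include Ptgir. Without TGFb 1 or without untreated 3, Ptgs2 alone passed. The 8 pathway genes called became 3 without the filter, 1 with the pair averaged and 0 to 11 when 1 array was left out. Median centring moved the median of all genes from 0.04 to -0.15 and the calls to 581 higher and 1270 lower. Ptges turned direction: 0.24 (0.26 with scan day) as the mean over its probes, 0.62 (0.66) by its other probe, and -0.42 to 0.14 with scan day when 1 array was left out. No other prostaglandin gene changed direction in the alternatives run.

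The sample titles number replicates 1 to 3 in both groups, while the scanner file names give untreated 1 and untreated 2 both the number 2. The numbers used here are those of the titles. Deviations of same-numbered arrays correlated at 0.81, -0.72 and 0.69, but arrays numbered 1 and 3 share a scan day and those numbered 2 do not, so these correlations do not settle a pairing. No label gives one, and the samples were not treated as pairs. With a replicate block, 2 genes were called of all tested and 0 of the 7 prostaglandin genes. The cause of these changes was not tested. Signal limits Ptgir, Ptgfr, Ptger2 and Ptger3, which lie at or below background in 1 or both groups.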
